A study of Mus musculus with 6 samples.

Results

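The genes described here encode the amino acid and neurotransmitter transporters of 7 solute carrier families, Slc1a, Slc3a, Slc6a, Slc7a, Slc36a, Slc38a and Slc43a, in hearts of mice that express a stabilized form of HIF1α. Members were chosen by gene symbol alone, as every row whose symbol starts with one of these family names, which gave 64 of 23537 symbols. Of these, 61 are transporter genes, and the other 3 (Slc36a1os, Slc6a19os and Slc7a6os) are genes named for the strand opposite to a transporter. RNA came from heart ventricles of male C57BL/6-FVB mice aged 6 to 8 weeks that carried both a tetracycline transactivator driven by the αMHC promoter of cardiomyocytes and HIF-PPN, a HIF1α with substituted hydroxylation sites under a tetracycline response element. The 3 control mice stayed on doxycycline, which keeps the transgene off, and the 3 HIF-PPN mice had been off doxycycline for 3 days. The poly A RNA of whole ventricle was sequenced, so RNA of endothelium, fibroblasts and blood cells was measured together with that of the cardiomyocytes that express the transgene. Drug and transgene change together between the groups, so an effect of doxycycline itself and an effect of HIF-PPN cannot be told apart here.

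Amino acids cross the plasma membrane through carriers that differ in substrate and in driving force. Slc1a and Slc6a proteins use the sodium gradient to concentrate glutamate, small neutral amino acids, creatine, taurine or released transmitters. Slc38a proteins import glutamine and other small neutral amino acids with sodium (system A) or move glutamine in either direction (system N). Several Slc7a proteins are light chains that work as exchangers only when bound to a heavy chain of the Slc3a family, and others carry arginine and lysine on their own. Some Slc36a and Slc38a proteins sit on lysosomes, where amino acid release is coupled to the growth kinase mTORC1. In heart muscle, creatine uptake feeds the phosphocreatine energy buffer and taurine is an abundant osmolyte.

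Levels are FPKM, fragments scaled for exon length and for the number of mapped fragments of the library. Each gene has 1 value per group, since the authors had merged the 3 mice of a group, and pairs of values below are given with the controls first. No value therefore has a replicate error, and no test or p-value is given. Each difference is a log2 fold change, the log2 ratio of the HIF-PPN to the control FPKM, and its size alone is described. Genes that reached 1 FPKM in either group were taken as expressed. FPKM is scaled for gene length, so levels can be set beside each other between genes. Cardiomyocyte markers were abundant in both groups, such as Myh6, the adult cardiac myosin heavy chain, at 2478 and 2335 FPKM in control and HIF-PPN hearts. Lung epithelial markers were listed at 0. Of 8 adipocyte markers, 7 were expressed and higher in HIF-PPN hearts, beside 52.1% of all expressed genes. Among the 7, Plin1 and Retn passed the filter through the HIF-PPN value alone, which fixes their direction.

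Of the 61 transporter genes, 31 were expressed. The single transporter gene that differed at least 2-fold was Slc7a5, which was higher in HIF-PPN hearts. None was at least 2-fold lower. Over all 12092 expressed genes with a fold change, 2.11% were higher by 2-fold or more and 1.08% lower by as much, so 1 of 31 in one direction is close to what the whole table holds. Of the 31, 20 were lower and 11 higher, with a median log2 fold change of −0.065, whereas of all expressed genes 47.9% were lower and 52.1% higher and their median was 0.012. At the smaller limit of 0.5 on the log2 scale, 3 transporter genes were higher (Slc7a5, Slc1a5 and Slc1a3) and 4 lower (Slc38a2, Slc38a6, Slc7a2 and Slc7a1), beside 7.12% and 5.50% of all expressed genes. The other 24 lay within 0.5 in either direction. Slc1a3, Slc6a9, Slc7a4 and Slc38a11 passed the filter through the HIF-PPN value alone, which fixes their direction. Among the 27 transporter genes that reached 1 FPKM in each of the groups, 20 were lower and 7 higher with a median of −0.12, beside 48.1% lower and 51.9% higher of 11587 genes and a median of 0.010. In RNA of whole ventricle, fewer cells of a type and less RNA per cell cannot be told apart.

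**Figure D1:**
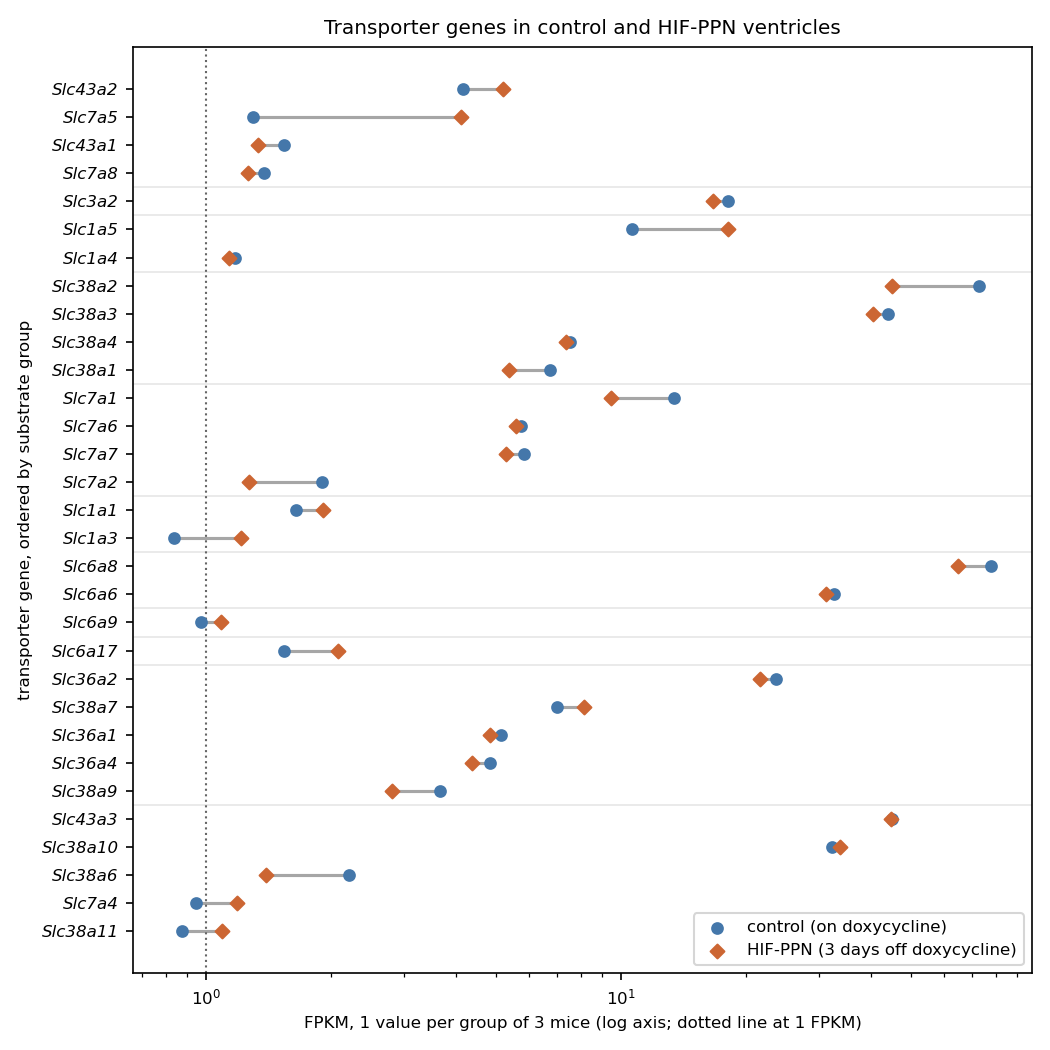
FPKM of each expressed transporter gene on a log axis, ordered by substrate group; circles are the control group, diamonds the HIF-PPN group, each 1 value for 3 mice, and the dotted line marks 1 FPKM. Slc7a5 shows the widest gap, from 1.30 to 4.11 FPKM, and Slc38a2 the widest in the other direction, from 72.9 to 44.9 FPKM.

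A few genes made up most of the transporter RNA. Slc6a8, which encodes the creatine transporter, stood first in both groups, followed by Slc38a2, which encodes the glutamine and alanine importer SNAT2, and Slc43a3, which encodes a purine nucleobase transporter that belongs to this family by sequence. The 7 genes with the highest mean held 74.6% of the summed FPKM of the 61 transporter genes in control hearts and 71.0% in HIF-PPN hearts. The order of the first 4 (Slc6a8, Slc38a2, Slc43a3, Slc38a3) was the same in both groups. Without replicates it is not known which neighbours in this order differ beyond the spread between mice. In HIF-PPN hearts Slc43a3 at 44.7 FPKM and Slc38a2 at 44.9 FPKM lay closer together than either lay to its other neighbour. The summed FPKM of all 61 genes was 440 in control hearts and 396 in HIF-PPN hearts, and 28.0 of that gap came from Slc38a2. Slc7a5 moved from rank 26 to rank 19, and Slc1a5 from rank 10 to rank 8.

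The large neutral amino acid carriers were split. These proteins move leucine, isoleucine, valine and the aromatic amino acids. Slc7a5, on chromosome 8 of GRCm38 from 121881146 to 121907686, encodes LAT1, a light chain that exchanges large neutral amino acids, and stood at 1.30 FPKM in the controls against 4.11 FPKM under HIF-PPN (log2 fold change 1.66, 3.17-fold). Of the 12092 expressed genes, 100 had a higher log2 fold change. Slc7a8, which encodes LAT2, the closest relative in function, was at 1.38 and 1.26 FPKM (a log2 fold change of −0.13). The control values of both light chains were nearly equal, with a ratio of Slc7a5 to Slc7a8 of 0.943, and the ratio in HIF-PPN hearts was 3.26. The facilitated carriers of the Slc43a family, which need no exchange partner, were at 4.16 and 5.19 FPKM for Slc43a2 (LAT4, log2 fold change 0.32) and at 1.54 and 1.34 FPKM for Slc43a1 (LAT3, log2 fold change −0.20). Slc43a2 was the most abundant of the 4 in both groups, with 49.7% and 43.6% of their sum, while the share of Slc7a5 was 15.5% in control and 34.5% in HIF-PPN hearts.

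The heavy chain that Slc7a5 needs differed little. Slc3a2 encodes 4F2hc (CD98), which brings light chains to the plasma membrane. It lies on chromosome 19 from 8706882 to 8723369 and stood at 18.1 FPKM in the controls against 16.7 FPKM under HIF-PPN (log2 fold change −0.12). Its control level was 13.9 times that of Slc7a5, and its HIF-PPN level 4.06 times. Summed over the 6 light chain genes known to pair with it (Slc7a5, Slc7a6, Slc7a7, Slc7a8, Slc7a10 and Slc7a11), light chain RNA was at 14.6 and 17.1 FPKM. This was below the heavy chain in control hearts and close to it in HIF-PPN hearts. The small excess over the heavy chain in HIF-PPN hearts rests on Slc7a10, listed there at 0.449 FPKM, under the filter. Slc7a5 held 8.86% of the light chain sum in control hearts and 24.0% in HIF-PPN hearts. In control hearts Slc7a7 (y+LAT1) and Slc7a6 (y+LAT2) led, which exchange cationic for neutral amino acids. Slc7a6 was at 5.72 and 5.59 FPKM (a log2 fold change of −0.033), and Slc7a7 was at 5.83 and 5.28 FPKM (−0.14 as log2 fold change). Both stayed above Slc7a5 in HIF-PPN hearts. The other heavy chain gene, Slc3a1, encodes rBAT of kidney and gut and was under 1 FPKM in both groups, as was xCT, the cystine and glutamate exchanger encoded by Slc7a11 (0.419 and 0.417 FPKM).

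**Figure D2:**
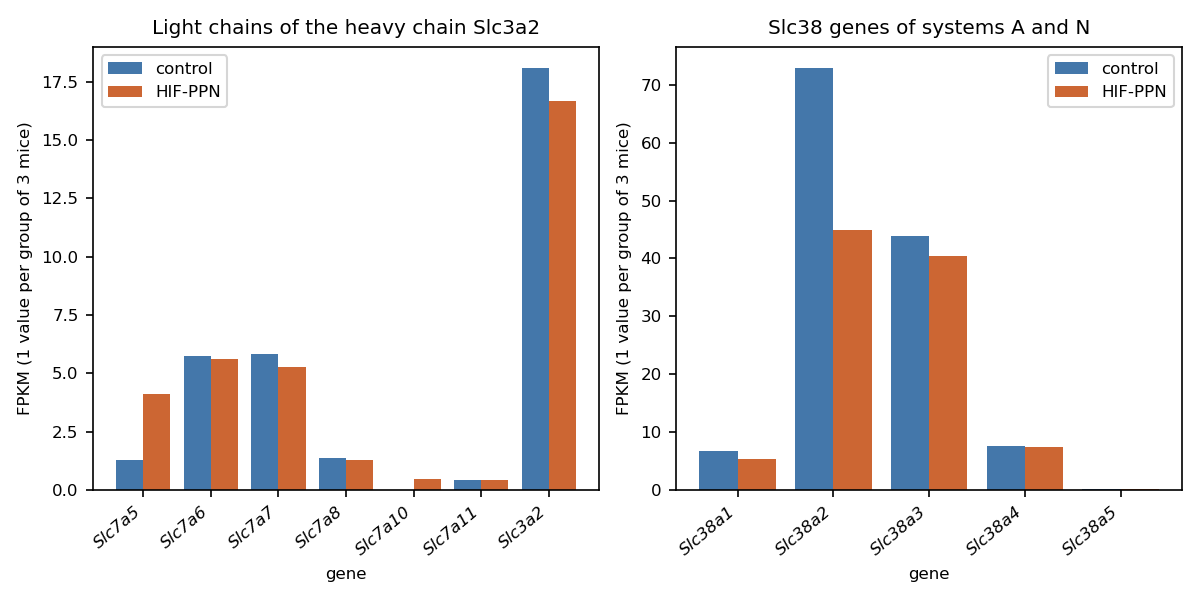
FPKM of the light chain genes and their heavy chain gene Slc3a2 (left) and of the Slc38 genes of systems A and N (right); paired bars are the control and the HIF-PPN group, each 1 value for 3 mice with no error bar. Slc7a5 alone among the light chains at 1 FPKM or more is higher in HIF-PPN hearts, and Slc38a2 carries most of the drop of systems A and N.

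Of the 2 expressed genes for small neutral amino acid exchangers, 1 was higher and 1 lower. Slc1a5 encodes ASCT2, a sodium-dependent exchanger that takes up glutamine. It lies on chromosome 7 from 16781346 to 16798274 and stood at 10.6 FPKM in the controls against 18.1 FPKM under HIF-PPN (log2 fold change 0.77, 1.70-fold), with 403 expressed genes above it. Its close relative Slc1a4, which encodes ASCT1 for alanine, serine and cysteine, was at 1.17 and 1.14 FPKM (a log2 fold change of −0.045). Slc7a10 encodes Asc-1, a light chain for small neutral amino acids that is known as a marker of white adipocytes. It was listed at 0 in control hearts and at 0.449 FPKM in HIF-PPN hearts, under the filter. Its listed position spans the neighbouring gene Lrp3. Of the 8 adipocyte markers, 7 were expressed and those 7 were higher, beside 52.1% of all expressed genes. Plin1 and Retn passed the filter through the HIF-PPN value alone, which fixes their direction, and the other 5 reached 1 FPKM in both groups. The markers had summed levels of 927 and 1286 FPKM, most of it Fabp4 (916 and 1233 FPKM). The defining markers Adipoq (1.55 and 8.24 FPKM) and Plin1 (0.600 and 3.29 FPKM) were low in control hearts, and their part in the values of Slc7a10 was not tested.

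The Slc38a genes of systems A and N were lower in 4 of 4 expressed genes (median log2 fold change −0.22), beside 47.9% of all expressed genes. Slc38a2 is the sodium-coupled system A transporter SNAT2, known to be induced when amino acids are scarce. It lies on chromosome 15 from 96687392 to 96699698 and stood at 72.9 FPKM in the controls against 44.9 FPKM under HIF-PPN (log2 fold change −0.70, 1.62-fold lower), and 317 of the 12092 expressed genes had a lower log2 fold change. Slc38a3 encodes SNAT3 of system N and was at 44.0 and 40.4 FPKM (a log2 fold change of −0.12). Slc38a1, the system A transporter SNAT1, was at 6.73 and 5.36 FPKM (a log2 fold change of −0.33), and Slc38a4, the system A transporter SNAT4, was at 7.52 and 7.38 FPKM (a log2 fold change of −0.027). The sum over the Slc38a1 to Slc38a5 genes came to 131 FPKM in the controls against 98.3 FPKM under HIF-PPN. Slc38a2 made up 55.6% of it in control and 45.7% in HIF-PPN hearts, and Slc38a3 33.5% and 41.1%. Slc38a5 (SNAT5) was at 0.107 and 0.174 FPKM. Both Slc1a5 and Slc38a2 take up glutamine, and their levels moved toward each other, from a ratio of Slc38a2 to Slc1a5 of 6.85 in control hearts to 2.49 in HIF-PPN hearts.

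Carriers of cationic amino acids were lower in 4 of 4 expressed genes (median log2 fold change −0.33), beside 47.9% of all expressed genes, and 2 of the 4 lay close to no change. Slc7a1 encodes CAT1, the main carrier of arginine and lysine in many cells. It lies on chromosome 5 from 148327410 to 148399904 and was at 13.4 and 9.43 FPKM (a log2 fold change of −0.51). Slc7a2, which encodes CAT2, was at 1.90 and 1.27 FPKM (a log2 fold change of −0.58). Both CAT genes were lower by nearly the same proportion, and Slc7a1 held 87.2% of the summed FPKM of the 3 CAT genes in either group. Slc7a3, which encodes CAT3, was at 0.0718 and 0.110 FPKM. The remaining expressed genes of this set were Slc7a6 and Slc7a7, both within 0.15 of no change on the log2 scale. The listed position of Slc7a7 spans Oxa1l, an abundant gene at 51.0 and 42.7 FPKM, and whether reads of one were counted for the other is not known. The positions listed for Slc43a2, Slc6a9, Slc3a1 and Slc6a19 likewise span a second gene.

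**Figure D3:**
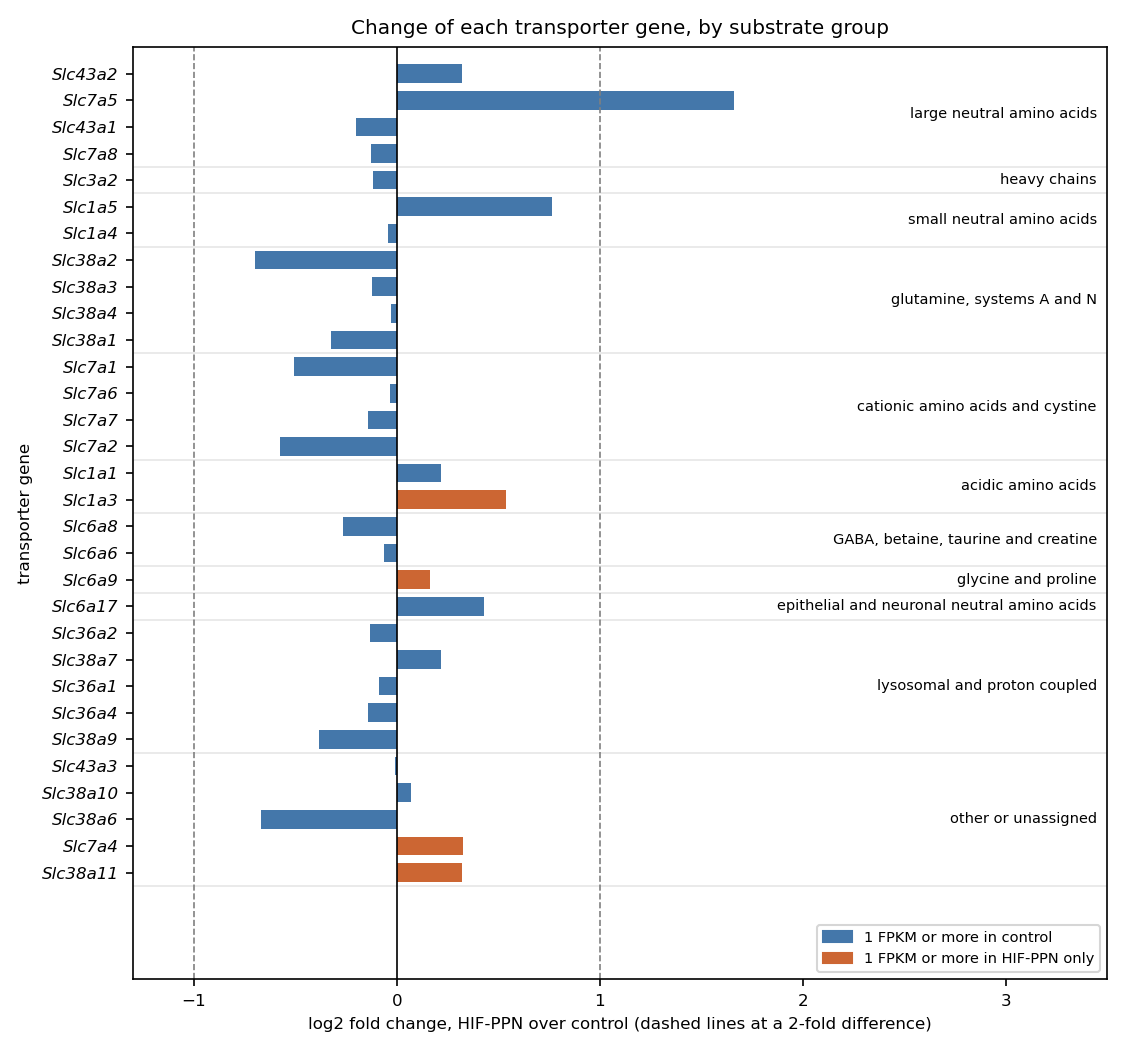
Log2 fold change (HIF-PPN over control) of the 31 expressed transporter genes by substrate group, with dashed lines at a 2-fold difference; orange bars mark genes that reached 1 FPKM in HIF-PPN hearts only. Slc7a5 at 1.66 is the single bar past a dashed line, and the expressed genes of systems A and N and of cationic amino acids all point to lower values.

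Creatine and taurine uptake genes were abundant, and both were lower in HIF-PPN hearts, beside 47.9% of all expressed genes. The taurine transporter gene differed little. Slc6a8, the creatine transporter gene on chromosome X from 73673133 to 73682500, stood at 77.9 FPKM in the controls against 64.7 FPKM under HIF-PPN (log2 fold change −0.27), and 1852 of the 12092 expressed genes had a lower log2 fold change. Slc6a6, the taurine transporter gene on chromosome 6 from 91684067 to 91759063, was at 32.6 and 31.1 FPKM (a log2 fold change of −0.065). Of the genes that make these compounds, Cdo1, a cysteine dioxygenase of taurine synthesis, was at 2.17 and 8.16 FPKM (a log2 fold change of 1.91), and Csad, which follows it, was at 5.58 and 6.61 FPKM (0.24). Gatm and Gamt, the enzymes of creatine synthesis, were at 3.14 and 2.55 FPKM and at 5.17 and 8.31 FPKM. The list of 10 genes also holds those of carnitine and betaine synthesis, and of its 5 expressed genes 4 were higher and 1 lower, beside 52.1% of all expressed genes higher. Its median of 0.50 is the value of Aldh7a1, an aldehyde dehydrogenase of betaine synthesis. The GABA and betaine transporter genes Slc6a11, Slc6a12 and Slc6a13 were each under 0.13 FPKM.

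The monoamine transporter genes of the Slc6a family were all under 1 FPKM. Slc6a2 encodes the noradrenaline transporter of sympathetic nerve endings, whose RNA is made in ganglia outside the heart, and was at 0.0400 and 0.0216 FPKM. Slc6a4, the serotonin transporter gene, was at 0.380 and 0.240 FPKM, and Slc6a3, the dopamine transporter gene, was listed at 0 in both groups. Of the 10 markers of sympathetic and chromaffin cells, 3 were expressed and those 3 were lower, beside 47.9% of all expressed genes. They were Dbh (3.40 and 0.973 FPKM), Ddc (3.76 and 1.62 FPKM) and the vesicular monoamine transporter gene Slc18a2 (1.63 and 1.41 FPKM). Dbh passed the filter through the control value alone. The summed level of these markers was 9.21 and 5.23 FPKM, and the defining marker Th was at 0.0392 and 0.107 FPKM. Their part in the Slc6a2 and Slc6a4 values was not tested.

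Glutamate carriers were scarce. Slc1a1, which encodes EAAT3 for glutamate, aspartate and cysteine, was at 1.65 and 1.91 FPKM (a log2 fold change of 0.22). Slc1a3, which encodes EAAT1 (GLAST), was at 0.836 and 1.21 FPKM (a log2 fold change of 0.54). Slc1a7, which encodes EAAT5 of the retina, was at 0.704 and 0.301 FPKM, a log2 fold change of −1.23 at levels under the filter. Slc1a2 (EAAT2) was at 0.155 and 0.134 FPKM, and Slc1a6 (EAAT4) was listed at 0. The sum of the 5 was 3.34 and 3.56 FPKM. Of the glycine and proline carriers of the Slc6a family, Slc6a9 (GlyT1) was the single one to reach 1 FPKM. It was at 0.972 and 1.09 FPKM (a log2 fold change of 0.16). Slc6a17, which encodes the vesicular neutral amino acid carrier NTT4 of neurons, was at 1.54 and 2.07 FPKM (a log2 fold change of 0.43).

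Lysosomal and proton-coupled carriers were lower in 4 of 5 expressed genes (median log2 fold change −0.13), beside 47.9% of all expressed genes. Slc36a2 (PAT2), a proton-coupled carrier of glycine, alanine and proline, was at 23.6 and 21.5 FPKM (a log2 fold change of −0.13). Slc36a1 (PAT1) was at 5.14 and 4.83 FPKM, and Slc36a4 (PAT4) at 4.82 and 4.36 FPKM. Slc38a9, the lysosomal arginine sensor upstream of mTORC1, was at 3.66 and 2.80 FPKM (a log2 fold change of −0.39). Slc38a7 (SNAT7), which releases glutamine from lysosomes, was at 6.99 and 8.12 FPKM (a log2 fold change of 0.21) and was the exception. Members with no single established amino acid substrate were Slc43a3 (45.0 and 44.7 FPKM, log2 fold change −0.010), Slc38a10 (32.2 and 33.8 FPKM, 0.069), Slc38a6 (2.21 and 1.39 FPKM, −0.67), Slc7a4 (0.946 and 1.18 FPKM, 0.32) and Slc38a11 (0.874 and 1.09 FPKM, 0.32). Slc7a6os, the opposite strand neighbour of Slc7a6, was at 7.46 and 6.86 FPKM (a log2 fold change of −0.12).

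The other transporter genes were below the filter. Above 0 in both groups and under 1 FPKM in each were 14 genes, among them Slc6a7, Slc6a14, Slc6a15, Slc6a19 and Slc7a14 beside those already named. Another 7 were listed at 0 in 1 group, among them Slc7a13 and Slc7a15 in HIF-PPN hearts and Slc6a12, Slc6a20a, Slc6a20b and Slc7a10 in control hearts, so no fold change is given for them. Listed at 0 in both groups were 11 of the 64 members, which include the kidney and gut genes Slc6a18 and Slc7a9, the brain glycine transporter gene Slc6a5 and the genes Slc6a11, Slc36a3, Slc38a8 and Slc7a12.

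Promoter windows were read for the members with the widest differences, to show where a short HIF binding core lies in them. RefSeq windows of GRCm38.p6, which run from 250 bases before to 50 bases after a gene start, were given for 21 of the 31 expressed transporter genes. Of the 6 members with the widest log2 fold changes, the windows of Slc38a2, Slc38a6 and Slc1a3 are shown 5′ to 3′ on the strand of the gene, and Slc7a5, Slc1a5 and Slc7a2 are named only. Capitals mark the letters ACGTG or GCGTG, the core of hypoxia response elements, on either strand. The Slc38a2 window is chr15:96699679-96699978 (minus strand), the Slc38a6 window chr12:73286598-73286897 (plus strand) and the Slc1a3 window chr15:8710758-8711057 (minus strand).
Slc38a2: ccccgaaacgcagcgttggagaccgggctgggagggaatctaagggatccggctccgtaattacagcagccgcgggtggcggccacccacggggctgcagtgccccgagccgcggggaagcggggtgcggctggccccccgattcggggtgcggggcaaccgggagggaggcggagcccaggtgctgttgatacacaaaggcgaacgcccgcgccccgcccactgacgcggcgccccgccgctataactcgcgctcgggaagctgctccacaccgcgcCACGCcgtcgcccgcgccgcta
Slc38a6: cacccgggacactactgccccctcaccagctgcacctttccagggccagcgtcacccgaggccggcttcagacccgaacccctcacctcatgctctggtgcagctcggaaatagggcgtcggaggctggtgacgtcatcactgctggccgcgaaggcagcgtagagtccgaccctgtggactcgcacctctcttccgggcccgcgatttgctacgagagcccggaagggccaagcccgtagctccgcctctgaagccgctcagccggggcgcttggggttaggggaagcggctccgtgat
Slc1a3: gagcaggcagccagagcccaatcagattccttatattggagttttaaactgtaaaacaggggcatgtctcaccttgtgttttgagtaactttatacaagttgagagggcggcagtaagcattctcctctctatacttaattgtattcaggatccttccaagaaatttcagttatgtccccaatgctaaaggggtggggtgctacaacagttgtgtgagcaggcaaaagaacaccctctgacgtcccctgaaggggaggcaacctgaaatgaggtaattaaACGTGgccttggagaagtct

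The Slc38a2 window held GCGTG on the reverse strand from position 279 of 300, and the Slc1a3 window held ACGTG from position 281, both after the gene start. The Slc38a6 window held neither. The Slc38a2 window is rich in G and C (73.0%), that of Slc1a3 is not (45.3%), and the median over all windows of the table is 52.7%. Over the 33 windows of expressed transporter genes, 22 held ACGTG or GCGTG (66.7%), beside 61.8% of the 11610 windows of all expressed genes and 43.8% of all 32851 windows. The letters TGATGNAAN, the C/EBP-ATF response element of ATF4 target genes, were in 3 of the 33 windows (those of Slc1a4 and of 2 starts of Slc7a7). The 2 Slc7a7 windows overlap and share the match, so it is counted more than once. By gene, 2 of the 21 with a window held it. The share was 2.26% of the windows of all expressed genes and 3.95% of all windows. A match is a description of the letters and not a measured site.

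Transporter genes known from other cells as targets of ATF4, the transcription factor of the amino acid response, did not move as one. This set of 9 was written after the values were seen. Of the 7 that were expressed, Slc7a5, Slc1a5 and Slc6a9 were higher, and Slc38a2, Slc7a1, Slc3a2 and Slc1a4 lower. Slc7a11 and Slc7a3 were not expressed. Of 17 genes for ATF4 and for regulators of the amino acid response, all expressed, 10 were higher and 7 lower (median log2 fold change 0.22). Over all expressed genes 52.1% were higher, with a median of 0.012. Atf4 was at 48.2 and 59.8 FPKM (0.31) and its partner Ddit3 at 12.0 and 14.9 FPKM (0.31). No gene of that list was at least 2-fold apart. Among the enzymes of glutamine, glutamate and aspartate, 9 of 15 expressed genes were higher and 6 lower (median 0.027), beside the same 52.1%. Asns, which makes asparagine from glutamine and aspartate, was at 1.42 and 3.33 FPKM, and Abat, which breaks down GABA, at 6.70 and 13.9 FPKM (1.05). Got1, the cytosolic aspartate aminotransferase, was at 510 and 358 FPKM (−0.51).

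The genes that break down the branched chain amino acids carried by LAT1 were lower in 15 of 20 expressed cases (median log2 fold change −0.082), beside 47.9% of all expressed genes, and none by 2-fold. Bckdha and Bckdhb, subunits of the rate-limiting dehydrogenase, were at 162 and 156 FPKM and at 49.3 and 45.1 FPKM, and Ppm1k, the phosphatase that activates it, was lowest at 50.8 and 37.3 FPKM (−0.45). Of other families that carry amino acids, peptides or transmitters, 8 of 15 expressed genes were higher and 7 lower (median 0.049). The share higher over all expressed genes was 52.1%. Slc17a7, which encodes the vesicular glutamate transporter VGLUT1, stood at 13.4 FPKM in the controls against 66.3 FPKM under HIF-PPN (log2 fold change 2.31). It exceeded every member of the families described here in log2 fold change and was the single gene of that list at least 2-fold apart.

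**Figure D4:**
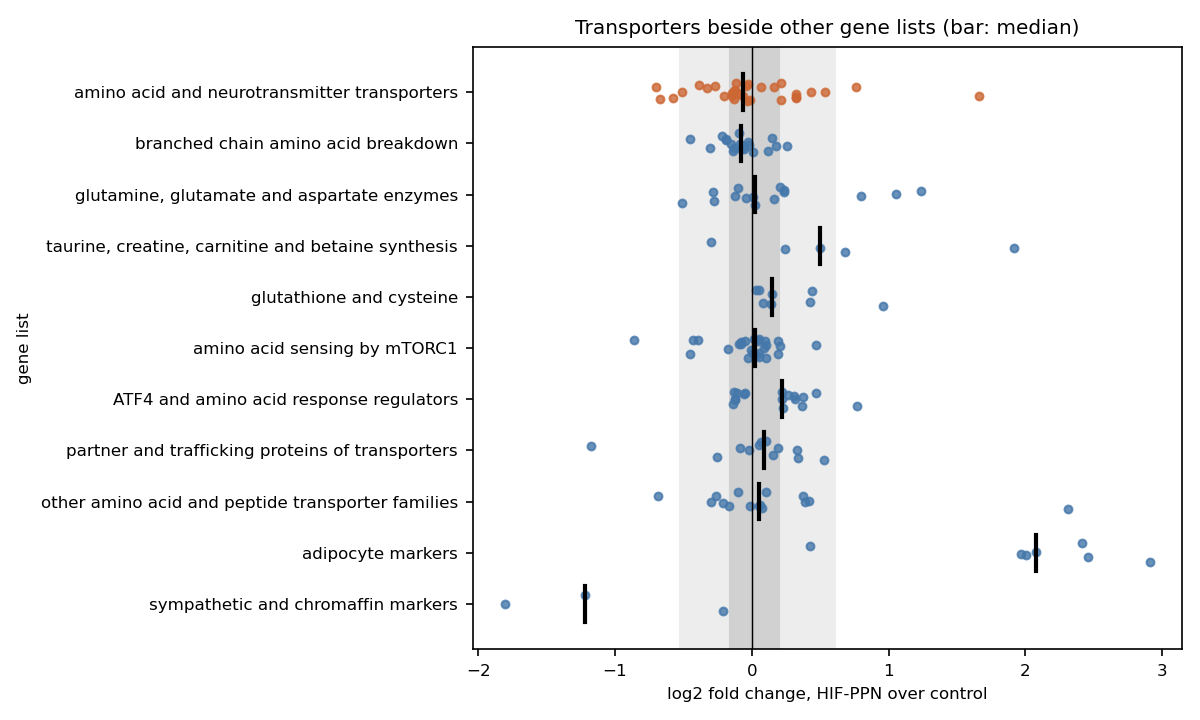
Log2 fold change (HIF-PPN over control) of expressed genes in the transporter families (orange) and in other lists (blue), each point a gene and each black bar the median of its list; shaded bands span the 5th to 95th and the 25th to 75th percentile of all expressed genes. The transporter genes centre on −0.065 with Slc7a5 at 1.66 as the single one beyond 1, while adipocyte markers centre on 2.08.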

How the data were processed

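RNA of heart ventricles from 3 control mice and 3 HIF-PPN mice was sequenced in paired ends after poly A enrichment. Per the study's methods, trimmed reads went through Tophat with Bowtie, and the authors derived FPKM with Cufflinks and Cuffdiff; the deposited FPKM values are 1 per gene and group, with the mice already merged. A column with the authors' log2 fold changes was not used. Read counts are not given, so the depth per sample is unknown and no interval can be given. Whether the libraries kept strand is not given in the sources used here. Of 21953 gene symbols compared, 99.2% overlapped the RefSeq gene of that name in GRCm38, and starts are printed counting from 1.

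Symbols were matched by prefix, and for a repeated symbol the row with the highest mean was kept, which left 23537 symbols of 23792 rows; no member was repeated. The log2 ratio had no pseudocount. Every expressed member (1 FPKM reached in either group) is named with its values, the others by count or name. From each other list, up to 6 genes are named. The plan put those at least 2-fold apart first and then the most abundant. Several named genes were instead picked after their values were seen, and more abundant genes of the same list are not named. The named genes therefore do not stand for their lists. Members, substrate groups and lists were chosen with earlier results of these data known. Alternatives were other filters, thresholds, pseudocounts, centring and treatment of rows. The script was tested on simulated data. Protein sequences were not used here, and a few genes are not reported here. Python 3.11.15, numpy 2.4.6, pandas 2.3.3 and matplotlib 3.10.9 were used.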

Additional observations from a re-analysis of the deposited data

How the results depend on the processing

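None of the 292 values of single transporter genes changed sign under the alternatives run, but for every setting except centring this was fixed in advance. A filter leaves the ratio of a gene as it is, and a pseudocount added to both groups keeps its sign. No member had a repeated symbol or lay in a row with several genes, so the settings for such rows left every member unchanged. Centring lowered each value by 0.0104, and the smallest positive one, that of Slc38a10, went from 0.0687 to 0.0583. The 23 values that moved by over 0.1 on the log2 scale did so with a pseudocount. No paired analysis was possible because the 3 mice of each group are merged in 1 value; for the same reason no mouse was left out. Centring, adding the rows of a repeated symbol and leaving out rows with several genes moved no count or median by more than the limits used (0.1 for a median, 1.5 times for a count).

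The count of genes at least 2-fold higher, 1, was 0 at a filter of 5 FPKM and with a pseudocount of 5 FPKM, since Slc7a5 is a low gene, and the threshold of 0.5 gave 3 higher and 4 lower. The count at least 2-fold lower, 0, was 1 (Slc1a7) at a filter of 0.5 FPKM and with no filter. Small groups moved with the filter. The median for acidic amino acids was 0.22 at 0.5 FPKM and at 1 FPKM in both groups and 0.0033 with no filter, with 1 gene lower at 0.5 FPKM and 2 with no filter. The median of the unassigned members, 0.069, was −0.0096 at 1 FPKM in both groups, a changed sign. Genes lower at 5 FPKM were 0 for large and for small neutral amino acids, 2 among lysosomal carriers and 1 among unassigned members. The medians at 5 FPKM were −0.14 for cationic, 0.32 for large neutral (Slc43a2 alone) and 0.77 for small neutral amino acids (Slc1a5 alone). With no filter they were −0.065 for the creatine and taurine group, −0.088 for cationic amino acids, −0.12 for systems A and N, −0.26 for glycine and proline (1 gene lower) and 0.28 for heavy chains, the last 2 with a changed sign. A pseudocount of 1 FPKM gave 0.20 for acidic amino acids, 0.28 for Slc6a17 and 1.15 for Slc7a5. One of 5 FPKM gave 0.074 for acidic amino acids, 0.11 for Slc6a17 and 0.53 for Slc7a5. It also gave −0.11 for cationic amino acids, 0.028 for Slc6a9, 0.56 for Slc1a5 and −0.35 for Slc7a1. The depth of each library is unknown, so values near 1 FPKM carry an error that cannot be stated.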

Other observations

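Genes of glutathione synthesis and cysteine handling, which use the cysteine, glutamate and glycine that these carriers supply, were higher in 8 of 8 expressed genes (median log2 fold change 0.15), beside 52.1% of all expressed genes. Chac1, which degrades glutathione, was at 2.95 and 5.73 FPKM (0.96 on the log2 scale), and Gclm and Gss of glutathione synthesis were at 11.6 and 15.6 FPKM and at 7.42 and 10.1 FPKM. The cystine importer gene Slc7a11 was close to equal in both groups at under 1 FPKM.

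Of 26 genes of amino acid sensing by mTORC1, all expressed, 15 were higher and 11 lower (median 0.025). The share higher over all expressed genes was 52.1%. Rragb, a GTPase that binds mTORC1 at the lysosome, was at 1.96 and 1.08 FPKM (log2 fold change −0.86), while Rraga, its close relative, was at 48.6 and 46.8 FPKM (−0.053). Sesn1, a sestrin, was at 82.4 and 60.2 FPKM (−0.45), and Sesn2 was at 1.36 and 1.88 FPKM (0.47). Of 12 expressed genes for partner and trafficking proteins of transporters, 8 were higher and 4 lower (median 0.086), beside the same 52.1%.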
